A study of Caenorhabditis elegans with 7 samples.

Results

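The dauer TGF-beta pathway of Caenorhabditis elegans was followed through its 7 core genes: daf-7, daf-1, daf-4, daf-8, daf-14, daf-3 and daf-5. They were taken by name from the symbol column of the authors' comparison table, and all 7 were found there and among the 14867 genes tested here, of 44968 counted features. The mRNA came from L1 larvae (the first larval stage) of the wild-type strain N2 that had been starved from hatching, whose parents had been grown in liquid culture either ad libitum (AL, 3 libraries, replicates A to C) or under dietary restriction (DR, 4 libraries, replicates A to D). AL parents had 25 mg of HB101 bacteria per mL and DR parents 3.1 mg per mL by the deposited notes, where the labels give the DR amount as ml per mL. The labels give a plate temperature of 20 °C for every library. Parents spent 96 hr in culture at 100 µL per animal. They entered it as embryos by the labels and as arrested larvae by the deposited notes. Both groups of offspring were freed by bleaching, hatched in S-basal without food and frozen after 24 hr. The larvae therefore share genotype and their own starvation, and differ by the parents' diet. Libraries were made from whole larvae in bulk, so that fewer cells of a type and less RNA per cell cannot be told apart. Replicates are described as biological, but the labels do not say whether they were separate cultures, so p-values measure the spread between these libraries.

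DAF-7 is a TGF-beta ligand released mainly by the ASI pair of chemosensory neurons in the head, and its transcription is known to follow food and to fall with crowding pheromone. It binds the type I receptor DAF-1 and the type II receptor DAF-4, which act through the receptor-regulated Smads DAF-8 and DAF-14. These hold back the Co-Smad DAF-3 and its partner DAF-5, a Sno/Ski protein. With the ligand present, larvae go on to reproductive growth, and loss of daf-7, daf-1, daf-4, daf-8 or daf-14 leads to the stress-resistant dauer stage, which loss of daf-3 or daf-5 suppresses. The pathway also acts on feeding, fat and egg laying. DAF-4 is shared with the DBL-1 pathway, which sets body size.

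The libraries held 16626117 to 22952310 counts in annotated features. Ribosomal RNA took 7.54% to 12.2% of the counts in 6 libraries and 22.5% in DR D. Moulting genes stood apart by library rather than by diet: their mean score on the centred log2 scale was 0.79 in AL B, 0.29 in AL C and 0.90 in DR B, whereas the other 4 libraries had −0.72 to −0.28. The names of the deposited files carry a prefix, BB1 for AL A, DR A, DR B and DR C and BB2 for AL B, AL C and DR D. What the prefix stands for is not given in the sources used here.

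Every gene of the pathway was expressed in every library, from 115 counts (daf-8 in DR D) to 10472 counts (daf-5 in AL A). Per kb of exon, with counts scaled to the library total and by TMM factors (CPM), the Sno/Ski gene daf-5 had the highest level of the 7, at 167.6 ± 8.86 CPM per kb (SD, n = 7). The ligand gene daf-7 came second at 79.2 ± 9.40 CPM per kb, above 92.7% of tested genes. The type II receptor gene daf-4 followed at 46.7 ± 3.81 CPM per kb. The 2 R-Smad genes lay apart from each other, daf-14 at 34.1 ± 3.85 and daf-8 at 6.65 ± 1.46 CPM per kb, the second being above 44.2% of tested genes. Between them stood the type I receptor gene daf-1 at 24.5 ± 1.83 CPM per kb and the Co-Smad gene daf-3 at 23.2 ± 1.67 CPM per kb. The ranges of neighbouring genes did not overlap, except for daf-1 (20.9 to 26.1 CPM per kb) and daf-3 (20.0 to 24.8 CPM per kb), which changed places in AL B and AL C. This order held in full in 5 of 7 libraries. The exon lengths come from the Ensembl annotation, which may differ from the one the authors counted on.

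**Figure D1:**
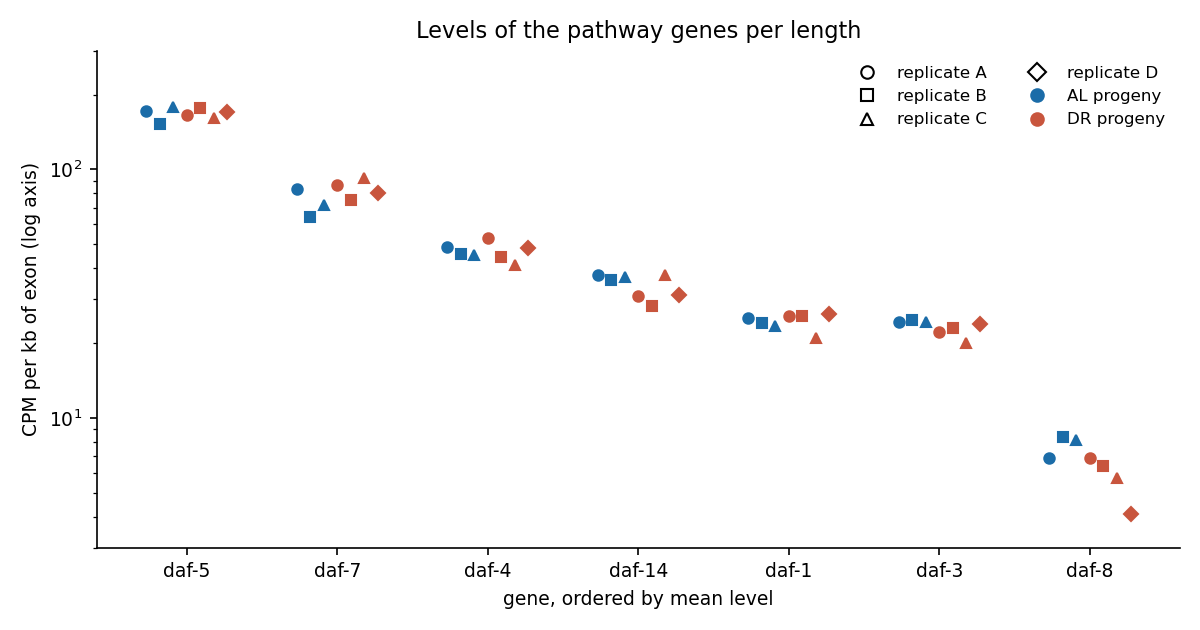
Level of each pathway gene in CPM per kb of exon (log axis), 1 point per library, with AL progeny in blue, DR progeny in red and symbols for the replicate letter. Apart from daf-1 and daf-3, the genes keep separate ranges in all 7 libraries, from daf-5 at 152.4 to 177.9 down to daf-8 at 4.10 to 8.37 CPM per kb.

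The ASI neurons that release DAF-7 were represented by a list of 5 genes expressed there, not all of them in ASI alone. Levels of these genes, which unlike daf-7 are receptor, G protein, transcription factor and insulin-like peptide genes, were mostly low in whole larvae. The insulin-like peptide gene daf-28, which is also expressed in ASI, had 47.9 ± 9.45 CPM per kb (SD, n = 7), and the transcription factor gene unc-3 had 4.76 ± 0.50 CPM per kb. The G protein gene gpa-4 stood at 2.18 ± 0.47 CPM per kb. The chemoreceptor genes str-3 and srg-47, with 3 to 13 and 0 to 8 counts per library, were too low to be tested. On these scales daf-7 RNA was more abundant than that of the other ASI genes listed.

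By the series title, the study set DR progeny against AL progeny to see what the diet of the parents changed in their offspring. None of the 7 genes passed the threshold of 0.05 on the adjusted p (edgeR quasi-likelihood test over all genes), where 0.0135% of tested genes were called. None passed by DESeq2, limma-voom or the edgeR exact test either. At an unadjusted p under 0.05 stood daf-8, 1 of 7, with less RNA in DR progeny, where 10.7% of tested genes did (5.39% higher and 5.35% lower in DR progeny). The groups did not overlap for daf-3, again 1 of 7, with DR below AL, where they did not overlap for 11.9% of tested genes (5.97% higher and 5.88% lower in DR progeny). The median log2 fold change of the 7 genes was 0.0074, beside 0.0078 for all tested genes. With 1 of 7 genes each, both shares were near the background.

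**Figure D2:**
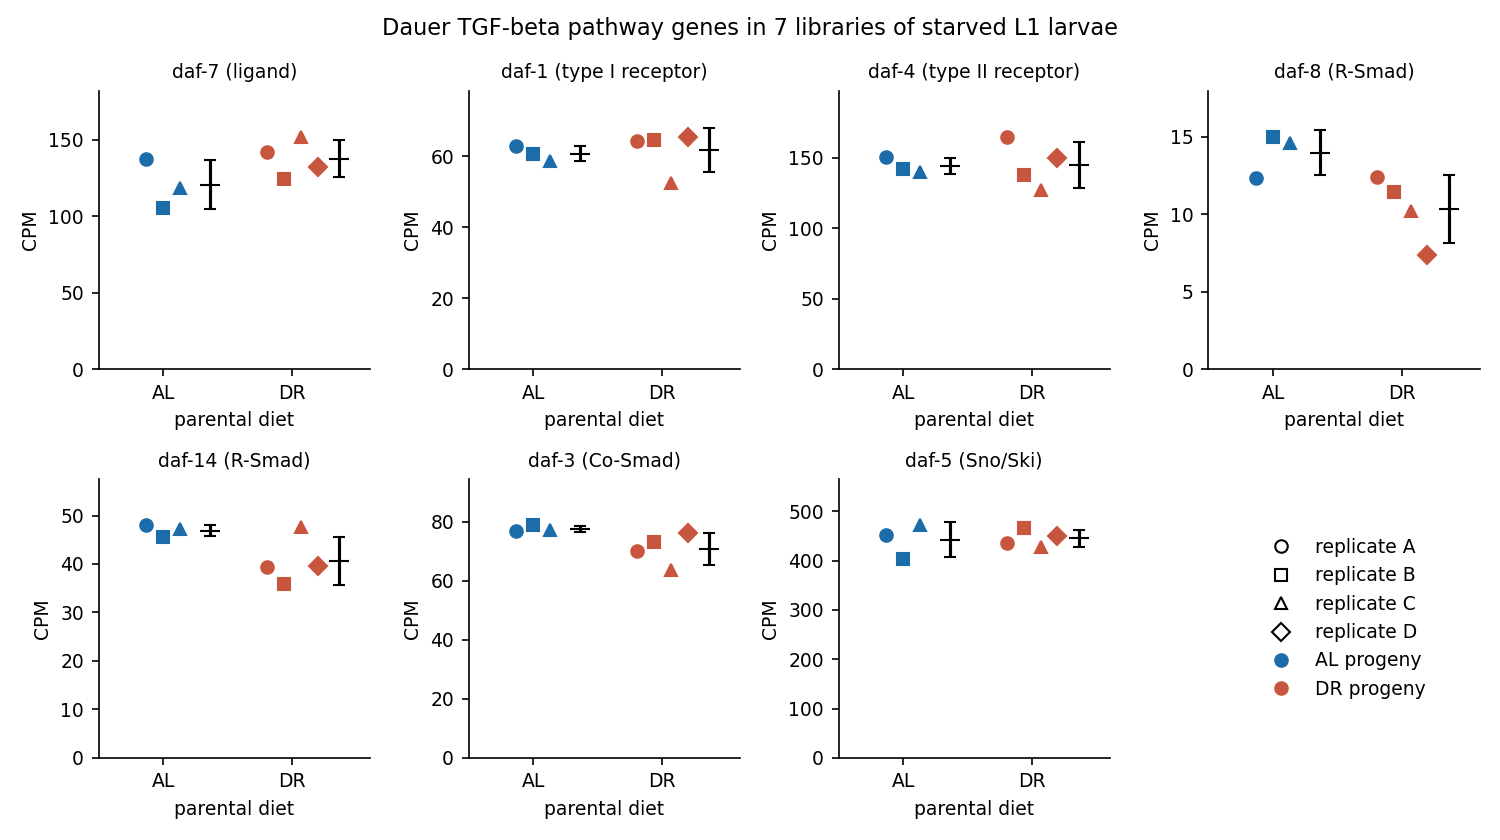
CPM of each pathway gene in each library (vertical axes from 0), with AL progeny in blue and DR progeny in red; black bars give the mean and SD of 3 AL and 4 DR libraries. The daf-8 points of DR progeny lie between 7.35 and 12.4 CPM and those of AL progeny between 12.3 and 15 CPM, while for daf-5 both groups lie between 403.8 and 471.3 CPM.

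For the ligand gene daf-7 (B0412.2, WBGene00000903), AL A, B and C had 137, 106 and 119 CPM, and DR A, B, C and D had 142, 124, 152 and 132 CPM. The highest library was DR C and the lowest AL B, and AL A lay above both DR B and DR D, so that the groups overlapped. The means were 120 ± 15.9 CPM (SD, n = 3) and 138 ± 11.8 CPM (SD, n = 4). The log2 fold change was 0.19 ± 0.11 (SE), with a 95% interval from −0.051 to 0.43 and an adjusted p of 0.550 (edgeR). On the linear scale that interval runs from 0.965-fold to 1.35-fold. Its size depended on single AL libraries, at 0.11 without AL B and 0.30 without AL A. It was 0.022 among the BB1 libraries and 0.25 among the BB2 libraries. With the moulting score as a covariate it was 0.14. AL B, AL C and DR B, the libraries with moulting scores above 0, were also those with the least daf-7 RNA. The part of moulting in the daf-7 values was not tested. Of the other ASI genes, daf-28 had 27.4 to 31.5 CPM in AL and 40.1 to 43.8 CPM in DR libraries (log2 fold change 0.54, adjusted p = 0.193, edgeR). The groups did not overlap for daf-28, as for 11.9% of all tested genes. Its unadjusted p ranked 5 of 14867 in the edgeR test, but the list was chosen with earlier results of these data known. The log2 fold changes of the others were −0.015 for unc-3 and −0.20 for gpa-4.

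The type I receptor gene daf-1 (F29C4.1, WBGene00000897) had 62.9, 60.5 and 58.7 CPM in AL A, B and C, and 64.4, 64.6, 52.4 and 65.4 CPM in DR A, B, C and D. Every library but DR C lay between 58.7 and 65.4 CPM, and DR C stood below all of them. The log2 fold change was 0.023 ± 0.099 (SE), with a 95% interval from −0.19 to 0.24 (adjusted p = 0.951, edgeR). It was 0.096 without DR C, and its sign turned under 7 of 21 alternatives. In the annotation daf-1 shares 108 bases of exon with the collagen gene col-99 on the opposite strand, whose own means in AL and DR progeny were 11.2 and 12.7 CPM. The libraries keep no strand, so reads from the shared bases cannot be assigned to either gene.

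The type II receptor gene daf-4 (C05D2.1, WBGene00000900), shared with the DBL-1 pathway, had 150, 142 and 140 CPM in AL A, B and C, and 165, 138, 127 and 150 CPM in DR A, B, C and D. The DR libraries spanned the AL libraries on both sides, with DR A highest and DR C lowest. Its log2 fold change was 0.0077 ± 0.10 (SE), with a 95% interval from −0.22 to 0.23 (adjusted p = 0.986, edgeR), and its sign turned under 10 of 21 alternatives. Both receptor genes had their lowest value in DR C. The non-coding RNA gene C05D2.11, with means of 151 and 149 CPM in AL and DR progeny, lies over the span of daf-4 on the same strand and shares no exon base with it in the annotation. The ratio of daf-4 to daf-1 per kb stayed within 1.73 and 2.07 over all libraries.

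The R-Smad gene daf-8 (R05D11.1, WBGene00000904) had the largest log2 fold change of the 7 in size and the lowest p. AL A, B and C had 12.3, 15 and 14.6 CPM, from 254 to 305 counts, and DR A, B, C and D had 12.4, 11.4, 10.2 and 7.35 CPM, from 115 to 256 counts. DR D was the lowest library. DR A lay just above AL A, which was the only overlap between the groups. The AL mean was 14 ± 1.45 CPM (SD, n = 3) and the DR mean 10.3 ± 2.19 CPM (SD, n = 4). The log2 fold change was −0.43 ± 0.16 (SE), a 0.744-fold level with a 95% interval from 0.580-fold to 0.953-fold that is not adjusted for the number of genes. Its p was 0.0233 before and 0.409 after adjustment (edgeR), and 5.68% of tested genes had a smaller p.

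The size of the daf-8 difference depended on which libraries entered. Among the BB1 libraries, with AL A as the only AL library and assumed to vary like the DR libraries, the log2 fold change was −0.12 (adjusted p = 0.999, edgeR). Among the BB2 libraries, with DR D as the only DR library and assumed to vary like the AL libraries, it was −1.0 (adjusted p = 0.0330, edgeR). With the prefix as a covariate it was −0.52 (adjusted p = 0.287, edgeR), and without DR D it was −0.30 (adjusted p = 0.627, edgeR). DR D was also the library with 22.5% ribosomal RNA. With the ribosomal RNA share of each library as a covariate, the value was −0.24 (adjusted p = 0.899, edgeR). That share tended to be higher in DR progeny, so the covariate overlaps in part with diet. Most intestine markers moved in the same direction, with 7 of 9 tested members at a log2 fold change below 0. Their summed level was 7563 to 8863 CPM in AL progeny against 4833 to 7617 CPM in DR progeny, and none of the 9 had a level of 0. The protease gene asp-1 alone had 3746 to 5168 CPM in AL and 2294 to 4391 CPM in DR progeny. The log2 fold changes of the transcription factor genes elt-2 and elt-7 were 0.16 and 0.00042. The part of the intestine list in the result was not tested. Of the body wall muscle markers 4 of 6 tested had a log2 fold change below 0, among them tnt-2 at −0.012, while lev-11 and unc-27 had 0.14 and 0.12. Their summed level was 9862 to 10336 CPM in AL progeny against 7596 to 10028 CPM in DR progeny. The myosin gene unc-54 alone had 6117 to 6408 CPM in AL and 4094 to 6108 CPM in DR progeny. The muscle gene hlh-1 had 0 counts in every library. Its feature may have been left out by the authors' counting, so the 0 is not read as its level. The lowest mean score of both lists was in DR D, at −0.19 for intestine and −0.21 for body wall muscle. Pharyngeal muscle markers went the other way, with 6 of 6 above 0 and a summed level of 2497 to 3235 CPM in AL progeny against 2824 to 3392 CPM in DR progeny, none of them at 0. Members below 0 were also the majority in the hypodermis list (6 of 8 tested) and the moulting list (12 of 15 tested). The part of the muscle, hypodermis and moulting lists was not tested either. Below 0 in all 21 alternatives, the log2 fold change of daf-8 lay between −1.0 and −0.12.

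The other R-Smad gene, daf-14 (F01G10.8, WBGene00000910), encodes a Smad that acts beside DAF-8. AL A, B and C had 47.9, 45.6 and 47.1 CPM, and DR A, B, C and D had 39.5, 35.9, 47.6 and 39.6 CPM. DR A, B and D lay below every AL library, while DR C lay among them. The means were 46.9 ± 1.17 CPM (SD, n = 3) and 40.6 ± 4.95 CPM (SD, n = 4). The log2 fold change was −0.21 ± 0.10 (SE), with a 95% interval from −0.43 to 0.014 (adjusted p = 0.489, edgeR). Without DR C the value was −0.29, with an unadjusted p of 0.00599 and an adjusted p of 0.332 (edgeR). Within the prefixes BB1 and BB2 it was −0.23 and −0.22. The 2 R-Smad genes thus had their low values in different libraries: in DR D, daf-8 was at its lowest and daf-14 at 39.6 CPM, and in DR B, daf-14 was at its lowest and daf-8 at 11.4 CPM. In the annotation daf-14 shares 111 bases of exon with F01G10.9 on the opposite strand, which had 100 counts over all 7 libraries.

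The Co-Smad gene daf-3 (F25E2.5, WBGene00000899), whose product opposes the signal, had 76.9, 78.8 and 77.2 CPM in AL A, B and C, and 70.2, 73.0, 63.6 and 76.2 CPM in DR A, B, C and D. Every DR library lay below every AL library, by a margin that came down to DR D against AL A. The means were 77.6 ± 0.998 CPM (SD, n = 3) and 70.7 ± 5.35 CPM (SD, n = 4). The log2 fold change was −0.13 ± 0.089 (SE), with a 95% interval from −0.33 to 0.061 (adjusted p = 0.604, edgeR). It was −0.084 without DR C, and −0.16 and −0.027 within the prefixes BB1 and BB2.

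The Sno/Ski gene daf-5 (W01G7.1, WBGene00000901), whose product works with DAF-3, had 453, 404 and 471 CPM in AL A, B and C, and 437, 466, 427 and 449 CPM in DR A, B, C and D. All 4 DR libraries lay within the range of the AL libraries. The log2 fold change was 0.0074 ± 0.096 (SE), with a 95% interval from −0.20 to 0.22 (adjusted p = 0.986, edgeR), and its sign turned under 5 of 21 alternatives. This was the narrowest spread in DR progeny of the 7 genes, with a coefficient of variation of 3.82%.

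**Figure D3:**
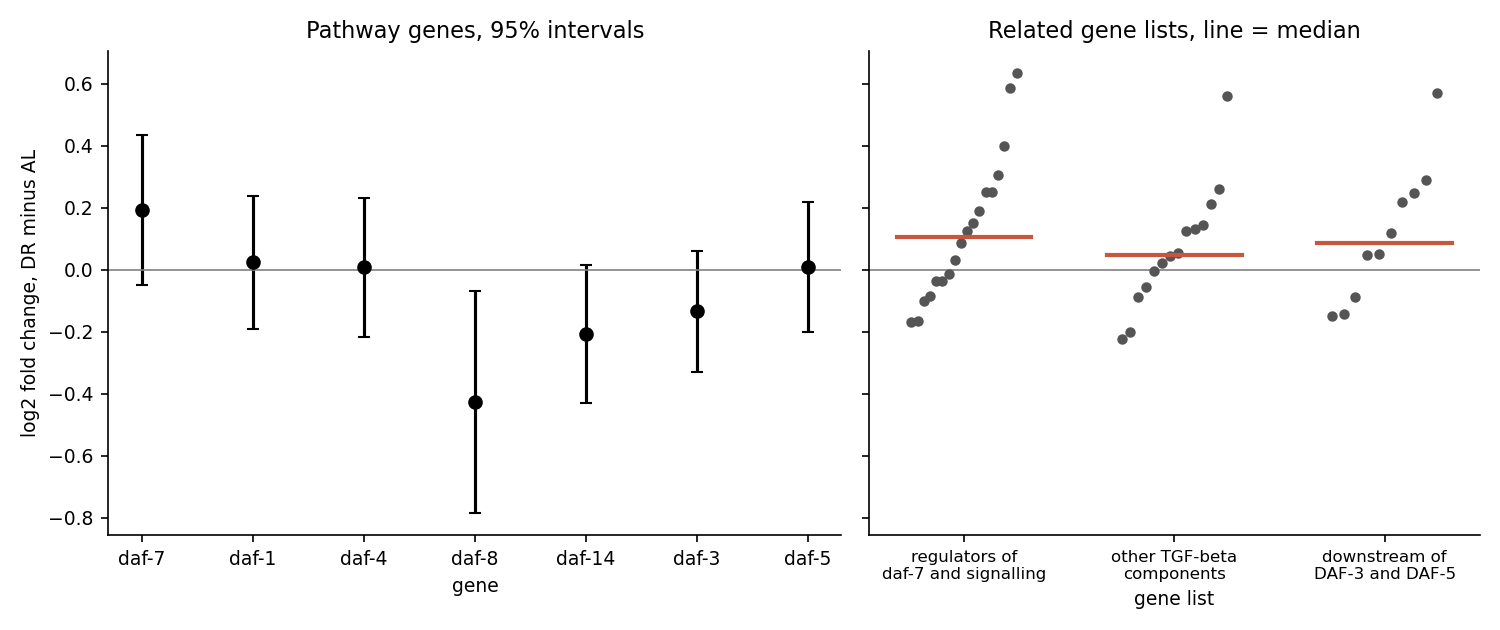
Left, log2 fold change of DR over AL progeny for each pathway gene with its 95% interval (edgeR, not adjusted for the number of genes); right, the same for every tested gene of the related lists, 1 point per gene, with the median as a line. The interval of daf-8 (−0.78 to −0.069) is the one that leaves out 0, and the list medians lie at 0.10, 0.048 and 0.085.

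The spread between libraries differed between the genes and between the diets. In AL progeny the coefficient of variation was 1.29% for daf-3, 2.48% for daf-14, 3.47% for daf-1 and 3.81% for daf-4. Counting error alone gives 2.52%, 3.24%, 2.85% and 1.85% for these genes, so the AL libraries of daf-3 and daf-14 lay no farther apart than counting error. In DR progeny the same genes had 7.56%, 12.2%, 10.1% and 11.1%. For daf-7 and daf-5 the larger spread was in AL progeny, at 13.2% and 7.88%. The spread was larger in DR progeny for 5 of the 7 genes, as it was for 61% of all tested genes.

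In the authors' deposited table, from an edgeR exact test, the log2 fold changes of DR over AL were −0.43 for daf-8, −0.21 for daf-14, −0.13 for daf-3, 0.19 for daf-7, 0.024 for daf-1, 0.0093 for daf-4 and 0.0089 for daf-5. The smallest adjusted p of the 7 genes in the authors' deposited table was 0.377, for daf-8, where 0.283% of its 13436 genes lay under 0.05.

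Genes that act on daf-7 or on the signal formed a list of 20, of which 18 were tested. It holds the cGMP pathway of the sensory neurons (daf-11, tax-2, tax-4, egl-4), the serotonin synthesis gene tph-1, pheromone receptor genes and modulators such as bra-1. No gene of the list passed over all genes (edgeR; 1 of 18 had an unadjusted p under 0.05, against 10.7% of all tested genes), 11 had a log2 fold change above 0 and 7 below, and the median was 0.10 against 0.0078 for all tested genes. The cGMP-gated channel gene tax-2, which had the smallest p of the list, had 3.59, 3.37 and 4.32 CPM in AL A, B and C, and 5.66, 4.2, 5.90 and 7.73 CPM in DR A, B, C and D. All DR libraries but DR B lay above the AL libraries (log2 fold change 0.63 ± 0.21, SE, adjusted p = 0.376, edgeR). Its partner subunit gene tax-4 had means of 3.79 and 5.03 CPM in AL and DR progeny, and the guanylate cyclase gene daf-11 had 7.82 and 9.63 CPM. For both, as for tax-2, the AL and DR libraries overlapped. The pheromone receptor gene daf-37 had means of 10.9 and 13 CPM, the kinase gene kin-29 of 117 and 104.3 CPM, and tph-1 of 2.04 and 2.44 CPM. The gene of the cGMP-dependent kinase EGL-4 (476 and 464 CPM) and bra-1, whose product binds the type I receptor DAF-1 (12.9 and 14.4 CPM), had log2 fold changes of −0.038 and 0.15.

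Of 15 genes of the other TGF-beta pathways 14 were tested, and none passed (edgeR; 3 of 14 had an unadjusted p under 0.05, against 10.7% of all tested genes). The list's median log2 fold change was 0.048, with 9 genes above and 5 below 0. The ligand gene dbl-1 of the body size pathway had means of 49.0 ± 2.62 CPM (SD, n = 3) and 50.9 ± 4.17 CPM (SD, n = 4). The TGF-beta-like gene tig-2 had 17.6, 20.0 and 21 CPM in AL A, B and C, and 23.5, 24.2, 22.5 and 23.1 CPM in DR A, B, C and D. Named for its small p, tig-2 had every DR library above every AL library, as did 5.97% of all tested genes (log2 fold change 0.26 ± 0.098, SE, adjusted p = 0.405, edgeR). The log2 fold changes of lon-1, a gene of body size control, sma-10, a membrane protein gene of the DBL-1 pathway, and sma-9, a zinc finger gene, were 0.56, −0.22 and −0.20. Levels of the main DBL-1 pathway genes are given for comparison and were chosen after values were seen. Per kb, dbl-1 stood at 29 ± 2.0 CPM per kb (SD, n = 7), below daf-7 in every library. The type I receptor gene of that pathway, sma-6, was at 21.9 ± 2.65 CPM per kb, where daf-1 was at 24.5. Its Smad genes sma-2, sma-3 and sma-4 were at 17.8, 14.8 and 45.8 CPM per kb, all above daf-8. The Smad genes daf-14 (34.1 CPM per kb) and daf-3 (23.2 CPM per kb) lay above sma-2 and sma-3 and below sma-4.

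All 10 genes listed downstream of DAF-3 and DAF-5 were tested, and none passed (edgeR; 1 of 10 had an unadjusted p under 0.05, against 10.7% of all tested genes). Their median log2 fold change was 0.085, with 7 above and 3 below 0. The metabotropic glutamate receptor gene mgl-3, which acts in the fat phenotype of daf-7 mutants, had 25.2, 19.9 and 27 CPM in AL A, B and C, and 30.6, 28.8, 28.1 and 30.1 CPM in DR A, B, C and D. The groups did not overlap for mgl-3 (log2 fold change 0.29 ± 0.11, SE, adjusted p = 0.409, edgeR). They did not overlap either for its relative mgl-1 (means of 14.3 and 16.7 CPM) and, with DR below AL, for the sterol transporter gene ncr-1 (52.9 and 47.9 CPM) and the nuclear receptor gene daf-12 (72.5 ± 1.87 and 65.3 ± 6.03 CPM). These 4 genes were named for having the smallest p of the list, which favours groups that do not overlap, and over all tested genes 11.9% did not overlap. The gene daf-9, whose product makes the ligand of DAF-12, had 3.90 ± 0.63 and 4.65 ± 0.80 CPM. Its libraries overlapped.

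By the root mean square difference of centred log2 CPM over the 7 libraries, the tested genes whose pattern was most like that of daf-7 were K09F6.9 (0.051), rnp-7 (0.055), the gene of a U1 snRNP protein, and Y48A5A.3 (0.060), where the median over all tested genes was 0.25. For daf-8 it was gfat-1 (0.044), the gene of the enzyme that opens the hexosamine pathway, with means of 35.7 and 27.6 CPM in AL and DR progeny. For daf-14 it was B0495.5, for daf-3 the cyclin gene cit-1.2, for daf-1 the RNA-binding protein gene larp-1, for daf-4 the RNA interference gene rde-10 and for daf-5 del-5. With 7 libraries and 14867 genes, close matches arise for any pattern.

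**Figure D4:**
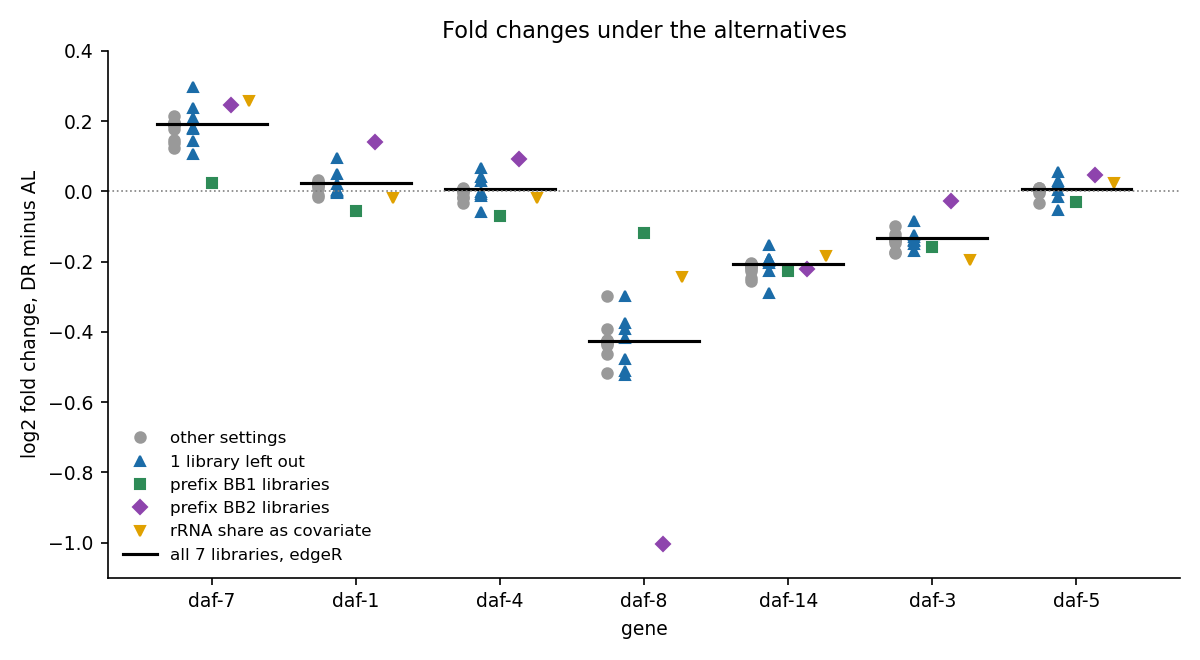
Log2 fold change of DR over AL progeny for each pathway gene with all 7 libraries (black line) and under the 21 alternatives (points, by kind). The daf-8 values run from −1.0 among the BB2 libraries to −0.12 among the BB1 libraries, and the values of daf-1, daf-4 and daf-5 lie on both sides of 0.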

How the data were processed

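The authors aligned with Bowtie 1.1.2, counted with HTSeq and compared with edgeR, per the submitters' processing notes. The genome build is not given in the sources used here, so coordinates are left out. Deposited raw counts per feature were used, from which HTSeq's summary lines (22.2% to 24.0% of reads) were left out. The authors deposited CPM per library, which each count divided by 1 constant per library gives, and a table of log2 fold changes with p-values from an edgeR exact test. Libraries used 12 PCR cycles; reads are not independent molecules, and counting errors cover counting alone.

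The gene test was that of edgeR 4.0.16 in R 4.3.3 (TMM, filterByExpr defaults, robust quasi-likelihood F-test, two-sided, Benjamini-Hochberg over 14867 genes, threshold 0.05); intervals are 95%. The code was tested on simulated data. DESeq2 1.42.0 and limma-voom (limma 3.58.1) were alternatives. Scores average log2 CPM (prior count 2) centred per gene. Exon lengths and overlaps are from Ensembl release 115. The members and lists were chosen with earlier results of these data known. Named genes were all members, the 4 genes with the smallest p of each related list, 7 fixed genes (daf-12 by both rules), the ASI genes and the closest patterns; sma-2, sma-3, sma-4 and sma-6 were added later. No gene of any marker list was called. Of the ciliated sensory neuron list, which holds tax-2 and tax-4, 10 of 15 tested genes had a log2 fold change above 0 and 5 below. Its median was 0.16, against 0.0078 for all tested genes, and its part in the daf-7 values was not tested. In the list of all neurons, 10 of 15 tested genes had a log2 fold change above 0 and 5 below. Of the intestine list 1 marker had no matching feature.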

Additional observations from a re-analysis of the deposited data

Results flagged for a closer look

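The type I receptor gene daf-1 was set apart by 1 library: DR C had 52.4 CPM, and the other 3 DR libraries had 64.4 to 65.4 CPM. The gap from DR C to its nearest neighbour was 0.92 of the whole range, above Dixon's 95% critical value for 4 samples. Chance passes that value in about 1 of 20 groups, and 7 genes were looked at in DR progeny. Groups of 3, such as AL progeny, were not looked at in this way. A low value in DR C was not particular to daf-1. Of the DR libraries, DR C was also the lowest for daf-4, daf-3 and daf-5, while it was the highest for daf-7 and daf-14. For daf-8 the lowest was DR D. Outside the pathway, daf-12 had 56.3 CPM in DR C and 67.3 to 69.1 CPM in the other DR libraries. Nor was it particular to dauer genes. Among the listed genes, unc-2 had 156 CPM in DR C against 244 to 261 CPM, and unc-13 had 148 CPM against 182 to 197 CPM. Others were highest in DR C, such as egl-21 (1309 CPM against 1043 to 1119 CPM) and tni-4 (344 CPM against 233 to 317 CPM). These examples were chosen after values were seen.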

How the results depend on the processing

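None of the 7 genes passed in 20 of the 21 alternatives, and 1 (daf-8) among the BB2 libraries. The direction of daf-7, daf-8, daf-14 and daf-3 was the same in all 21. The differences of daf-1, daf-4 and daf-5 were smaller than their errors and changed sign: with library size only, to −0.016, −0.033 and −0.034; among BB1 libraries, to −0.057, −0.069 and −0.030; with the rRNA share, to −0.019 (daf-1) and −0.018 (daf-4); with no filter on low counts, to −0.0046 (daf-4) and −0.0057 (daf-5); with the moulting score as a covariate, to −0.019 (daf-4). Leaving out 1 library gave −0.0057 to 0.096 for daf-1, −0.058 to 0.067 for daf-4 and −0.054 to 0.055 for daf-5. The cause was not tested.

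Over all genes, 2 calls became 1 with library size only, 77 with no filter, 55 by DESeq2, 24 by the edgeR exact test and 616 among BB2 libraries, where 1 DR library stands for the group. They became 0 by limma-voom (1565 at an unadjusted p under 0.05), with edgeR 0 without robust estimation (1635), 0 among BB1 libraries (581), 0 with the rRNA share (774) and 0 with the moulting score (1270), and between 0 and 2 with 1 library left out. No gene of the related lists passed under any of the 21. With the replicate letter as a block there were 4 calls, and daf-1 stood at −0.012, daf-4 at −0.015, daf-8 at −0.30 and daf-7 at 0.21. Deviations of libraries with the same letter correlated at 0.197 (A), 0.268 (B) and −0.101 (C). AL B correlated best with its own letter, and AL A and AL C each with another letter. The labels do not say whether a letter marks a shared batch, and so few libraries cannot decide it. Depth limits daf-8 most, where counting error alone is 6.98% in DR progeny.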

Other observations

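Set against the ligand gene, the scarcest gene of the pathway gave the widest ratio between libraries. The ratio of daf-7 to daf-8 per kb of exon, chosen after its values were seen and not tested, was 12.1, 7.66 and 8.82 in AL A, B and C, and 12.5, 11.9, 16.1 and 19.6 in DR A, B, C and D. AL A lay above DR B, so the groups overlapped. The ratio of the Co-Smad gene daf-3 to daf-8 was 2.96 to 3.52 in AL and 3.19 to 5.84 in DR progeny, with DR D highest. The ratio of daf-14 to daf-8, the 2 R-Smad genes, was 4.29 to 5.48 in AL and 4.42 to 7.59 in DR progeny.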
